A study of Mus musculus with 6 samples.

Results

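The 8 genes described here encode plasminogen activators and their receptor (Plau, Plaur and Plat) and matrix metalloproteinases (Mmp7, Mmp9, Mmp10, Mmp13 and Mmp14). They were taken by name from the mouse gene annotation, which holds 55341 gene symbols, 21924 of them protein-coding. Each promoter, the 1000 bp on either side of every annotated transcript start, was set against peaks of 2 histone marks. The genes were chosen by name with the peaks called at some of them, above all at Plau, already known. The presence, width and covered share of their peaks are therefore a description, and nothing is inferred from the choice.

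Urokinase (Plau), held at the cell surface by its receptor (Plaur), and tissue plasminogen activator (Plat) cut plasminogen into plasmin, a protease that dissolves fibrin and activates several metalloproteinases. The metalloproteinases cut the proteins of the extracellular matrix and basement membrane, and in the gut epithelium such proteases are known for their part in wound closure, inflammation and tumour invasion. H3K4me3 marks the start of genes that are transcribed or ready to be, and H3K27me3, laid down by Polycomb complexes, marks repressed genes. A promoter that carries both is often called bivalent.

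The study grew organoids, which are 3-dimensional cultures of epithelial cells, from the colon of wild-type (wt) C57BL/6 mice and compared untreated organoids with organoids kept for 3 weeks in 40 ng/ml of the inflammatory cytokine TNFα (wt+TNFα). Chromatin immunoprecipitation with sequencing (ChIP-seq) was done for H3K4me3 and H3K27me3, as a single library for each mark in each condition, beside an input for each, which makes 6 samples. The labels state a depth of 40000000 reads for an input or H3K4me3 library and of 60000000 for an H3K27me3 library. These are not the read totals given in the study's reporting form. That form lists clearly more reads for wt+TNFα than for wt in H3K4me3 and in the inputs, and nearly equal numbers in H3K27me3. Treatment and depth therefore cannot be told apart in the H3K4me3 calls and widths below. No replicate check was possible, so the values below describe these 4 libraries, carry no error and were not tested.

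The lists of called peaks differed in size. The H3K4me3 lists held 11552 peaks in wt and 11894 in wt+TNFα, which covered 18.2 and 19.97 Mb. The H3K27me3 lists held 30594 and 60540 peaks, which covered 102 and 302.6 Mb. On the X chromosome the H3K27me3 peaks of wt covered 0.597 Mb and those of wt+TNFα 74.7 Mb, and on the autosomes they covered 101.5 and 227.9 Mb. The H3K4me3 list had 3 peaks on the Y chromosome in wt and 0 in wt+TNFα. For the sex of its mice the study points to a source data file that was not used here, so sex and treatment cannot be told apart in these values. The name of the wt+TNFα H3K27me3 list alone lacks a spike-in tag, and the lowest −log10 q was 0.302 in the wt list of that mark and 0.747 in the wt+TNFα list. All 8 genes are autosomal. Of 9 epithelial marker genes, 8 carried H3K4me3 in wt and 7 in wt+TNFα, where 50.5% and 51.2% of protein-coding genes did. Krt20, a keratin of differentiated colonocytes, carried it in wt alone, and the stem cell marker Lgr5 had H3K27me3 and no H3K4me3 in both. None of 5 fibroblast, 5 blood cell and 3 endothelial markers had an H3K4me3 peak in either condition. Of these, the myeloid marker Lyz2 and the endothelial marker Pecam1 had H3K27me3 in wt+TNFα alone, over 100% and 52.6% of the promoter. That was called at 6.48% of autosomal protein-coding genes. The −log10 q was 2.28 for Lyz2, and 1.31 and 1.37 for the Pecam1 peaks. H3K27me3 was called in both conditions at 3 fibroblast, 2 blood cell and 2 endothelial markers, where 15.1% of protein-coding genes had it without H3K4me3. Col3a1, Dcn, Ptprc and Itgam had neither mark, as did 26.3%.

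The RefSeq promoter sequences of the GRCm38.p6 assembly, 250 bases before and 50 after the start, are shown for 5 of the 8 genes because they hold the sequence features set against the marks below. Plau, Plat and Mmp9 had no entry. All 5 genes lie on the plus strand, and each sequence runs 5′ to 3′. Capitals mark matches to the AP-1 motif TGANTCA, whose complement is the same motif, and to the TATA box TATAAA on the coding strand. The sequences of Plaur (chr7:24462233-24462532), Mmp7 (chr9:7691840-7692139), Mmp10 (chr9:7502092-7502391), Mmp13 (chr9:7272264-7272563) and Mmp14 (chr14:54431348-54431647) follow.
Plaur: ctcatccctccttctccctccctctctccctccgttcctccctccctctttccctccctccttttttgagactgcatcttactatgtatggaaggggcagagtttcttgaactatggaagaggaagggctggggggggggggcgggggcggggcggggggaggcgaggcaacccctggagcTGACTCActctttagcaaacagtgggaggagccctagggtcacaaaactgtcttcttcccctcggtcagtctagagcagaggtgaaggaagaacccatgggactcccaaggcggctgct
Mmp7: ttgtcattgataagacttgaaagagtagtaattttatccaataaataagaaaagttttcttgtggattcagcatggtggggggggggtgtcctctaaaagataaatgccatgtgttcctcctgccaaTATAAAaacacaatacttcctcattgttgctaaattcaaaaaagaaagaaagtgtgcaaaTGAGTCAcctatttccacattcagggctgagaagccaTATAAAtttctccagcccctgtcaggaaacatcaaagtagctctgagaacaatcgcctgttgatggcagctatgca
Mmp10: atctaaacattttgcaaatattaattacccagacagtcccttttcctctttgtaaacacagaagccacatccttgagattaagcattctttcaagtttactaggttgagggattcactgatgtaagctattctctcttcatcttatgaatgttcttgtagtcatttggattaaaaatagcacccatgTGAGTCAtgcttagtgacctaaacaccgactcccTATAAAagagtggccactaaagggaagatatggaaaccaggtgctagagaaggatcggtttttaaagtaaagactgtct
Mmp13: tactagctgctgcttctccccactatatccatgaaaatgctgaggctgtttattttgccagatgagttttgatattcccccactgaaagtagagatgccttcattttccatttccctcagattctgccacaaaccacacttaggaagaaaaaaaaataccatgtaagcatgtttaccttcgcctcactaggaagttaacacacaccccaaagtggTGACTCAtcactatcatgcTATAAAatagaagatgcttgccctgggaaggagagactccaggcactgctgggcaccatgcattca
Mmp14: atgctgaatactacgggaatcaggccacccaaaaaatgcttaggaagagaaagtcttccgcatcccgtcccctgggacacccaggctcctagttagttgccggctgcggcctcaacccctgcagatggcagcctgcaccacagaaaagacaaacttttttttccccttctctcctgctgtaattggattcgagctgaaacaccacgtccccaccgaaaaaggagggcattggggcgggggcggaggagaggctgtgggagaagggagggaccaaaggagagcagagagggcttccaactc

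Across the 8 genes, 4 arrangements of the marks were seen in wt, and TNFα-treated organoids differed from untreated ones at 4 genes. Plau had H3K27me3 without H3K4me3 in wt and the reverse in wt+TNFα. Plaur had H3K4me3 alone (as did 42.4% of protein-coding genes in both conditions), over a wider peak in wt+TNFα. Mmp14 had both marks in both conditions, with a wider H3K4me3 peak and a narrower H3K27me3 peak in wt+TNFα. Mmp9 lay inside a broad H3K27me3 domain, which was longer in wt+TNFα. Plat, Mmp7, Mmp10 and Mmp13 had no peak of either mark.

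Set against all protein-coding genes, H3K4me3 was called at few of these promoters. There were 2 of 8 with a peak in wt and 3 of 8 in wt+TNFα, where 50.5% and 51.2% of the 21924 protein-coding genes had one. H3K27me3 was called at 3 of 8 in wt and 2 of 8 in wt+TNFα, where the background was 21.7% and 29.5%. The covered share of the promoter had a median of 0% over the 8 genes in each of the 4 lists. Over all protein-coding genes the median was 5.32% and 7.57% for H3K4me3 in wt and wt+TNFα, and 0% for H3K27me3 in both.

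**Figure D1:**
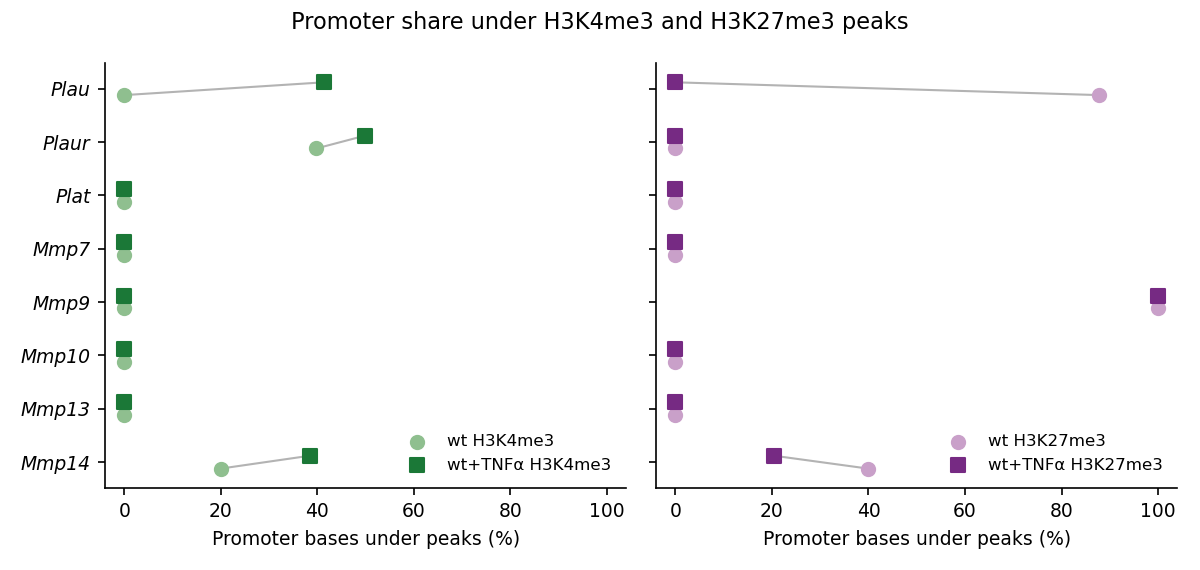
Percent of promoter bases under called peaks for the 8 genes, H3K4me3 on the left and H3K27me3 on the right. Circles stand for wt and squares for wt+TNFα, with 1 library each, and a grey line joins the 2 values of a gene. Plau goes from 0% to 41.4% for H3K4me3 and from 87.8% to 0% for H3K27me3, and Plat, Mmp7, Mmp10 and Mmp13 stay at 0% in all 4 lists.

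Among the plasminogen activators, Plau carried a different mark in each condition. Plau (ENSMUSG00000021822.3, chr14:20836660-20843385, plus strand, GRCm38/mm10) encodes urokinase and has 2 annotated transcript starts. In wt, an H3K27me3 peak of 4644 bp (chr14:20835911-20840554) reached from 749 bp upstream of the start to 3894 bp downstream and covered 87.8% of the promoter, and no H3K4me3 peak was called. In wt+TNFα no H3K27me3 was called, and an H3K4me3 peak of 854 bp (chr14:20836376-20837229) covered 41.4% of the promoter. Each mark was thus called in 1 condition alone. The H3K4me3 peak lay across the start, with 284 bp outside the gene, 162 bp in exons and 408 bp in introns, and its summit was 112 bp downstream of the start.

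The difference in H3K27me3 at Plau reached beyond the promoter. Peaks covered 57.9% of the gene body in wt and 0% in wt+TNFα, and the nearest H3K27me3 peak in wt+TNFα was 14.0 kb from the promoter. Within 25 kb of the gene, wt had 4 other H3K27me3 peaks and wt+TNFα had 2. The −log10 q of these peaks ran from 0.893 to 1.85 in wt and was 1.21 and 1.41 in wt+TNFα, all below 2. In wt the nearest H3K4me3 peak lay 41.2 kb from the Plau promoter, at the promoter of Camk2g, a calcium/calmodulin-dependent kinase gene.

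The H3K4me3 peak of Plau was among the weakest of its list and the H3K27me3 peak near the middle. The H3K4me3 peak had a fold enrichment over input of 6.88, which placed it at percentile 6.44 of its list, and a −log10 q of 22.3, against a lowest value of 6.95 in that list. The H3K27me3 peak had a fold enrichment of 2.12, at percentile 53, and a −log10 q of 1.01. With only H3K27me3 peaks of −log10 q of at least 2, Plau had no H3K27me3 peak in either condition. That limit is the q-value threshold named for H3K27me3 in the reporting form, below which the wt peaks of Plau and Mmp14 fall. Both deposited H3K27me3 lists run below it, to 0.302 in wt and 0.747 in wt+TNFα. With the longer H3K4me3 list trimmed to the covered autosomal length of the other, or with both lists trimmed to peaks above their median −log10 q, it had no H3K4me3 peak in either. The covered H3K4me3 share in wt+TNFα ran from 8.49% to 79.7% with promoters of other widths.

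The combination seen at Plau, H3K27me3 in wt alone with H3K4me3 in wt+TNFα alone, was called at 25 of 21924 protein-coding genes (0.114%). Each part by itself was more frequent, with 1.49% for H3K4me3 in wt+TNFα alone and 1.21% for H3K27me3 in wt alone. The opposite calls stood at 0.743% for H3K4me3 in wt alone and 6.48% of autosomal protein-coding genes for H3K27me3 in wt+TNFα alone, and none of the 8 genes had either. By distance over the 4 covered percents, the protein-coding genes most like Plau were Syde1, the homeobox gene Hoxb6 and Pthlh, which encodes parathyroid hormone-like hormone. Syde1 (11.95 percentage points from Plau) had 37.6% of its promoter under H3K4me3 in wt+TNFα and 99.2% under H3K27me3 in wt, with 0% in the other 2 lists. Hoxb6 (13.4 points) had 46.9% and 100%, again with 0% in the other 2. Pthlh (16.6 points) had 47.9% and 100%, with 9.22% under H3K27me3 in wt+TNFα.

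Plaur, the receptor that holds urokinase at the cell surface, carried H3K4me3 in both conditions and no H3K27me3. Its gene (ENSMUSG00000046223.10, chr7:24462484-24475968, plus strand) had an H3K4me3 peak of 1139 bp in wt (chr7:24462698-24463836) and of 1576 bp in wt+TNFα (chr7:24462495-24464070). The wt peak lay wholly in an intron and began 214 bp downstream of the start. The wt+TNFα peak held all of it, reached 203 bp further upstream and 234 bp further downstream, and included 73 bp of exon. The covered share of the promoter was 39.8% in wt and 49.9% in wt+TNFα.

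The width difference at Plaur was at the upper end of the range over genes. The ratio of the widths, wt+TNFα over wt, was 1.38, at percentile 94.4 of 10195 protein-coding genes with a single promoter peak in each condition, whose median ratio was 1.06. The fold enrichment stood at 9.21 in wt, percentile 13.2 of that list, and at 18.5 in wt+TNFα, percentile 30.8. These places, each within its own list, differed by 17.7 percentile points, at percentile 84.6 of the same genes, whose median difference was 1.115 points. The genes were not matched for their place in wt, and a low place leaves more room for a higher one than for a lower one. The H3K27me3 peak nearest to the Plaur promoter was 16.0 kb from it in wt and 17.2 kb in wt+TNFα. It lay downstream of the gene end, beginning at chr7:24479476 in wt and at chr7:24480661 in wt+TNFα. In both it lay over the promoter of Cadm4, a cell adhesion gene. That promoter also had an H3K4me3 peak in both conditions, 982 bp wide in wt and 965 bp in wt+TNFα.

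Plat, the gene of tissue plasminogen activator (ENSMUSG00000031538.6, chr8:22757727-22782844, plus strand), had no peak of either mark at its promoter or in its gene body. The nearest H3K4me3 peak lay 47.0 kb from the promoter in both conditions, downstream of the gene end, at Ap3m2, which encodes an adaptor protein subunit. The H3K27me3 peak nearest to the promoter was 20.9 kb from it in wt, upstream, and 33.8 kb from it in wt+TNFα. The wt+TNFα peak (chr8:22792580-22793501) lay downstream of the gene end, so its distance from the gene itself is shorter.

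**Figure D2:**
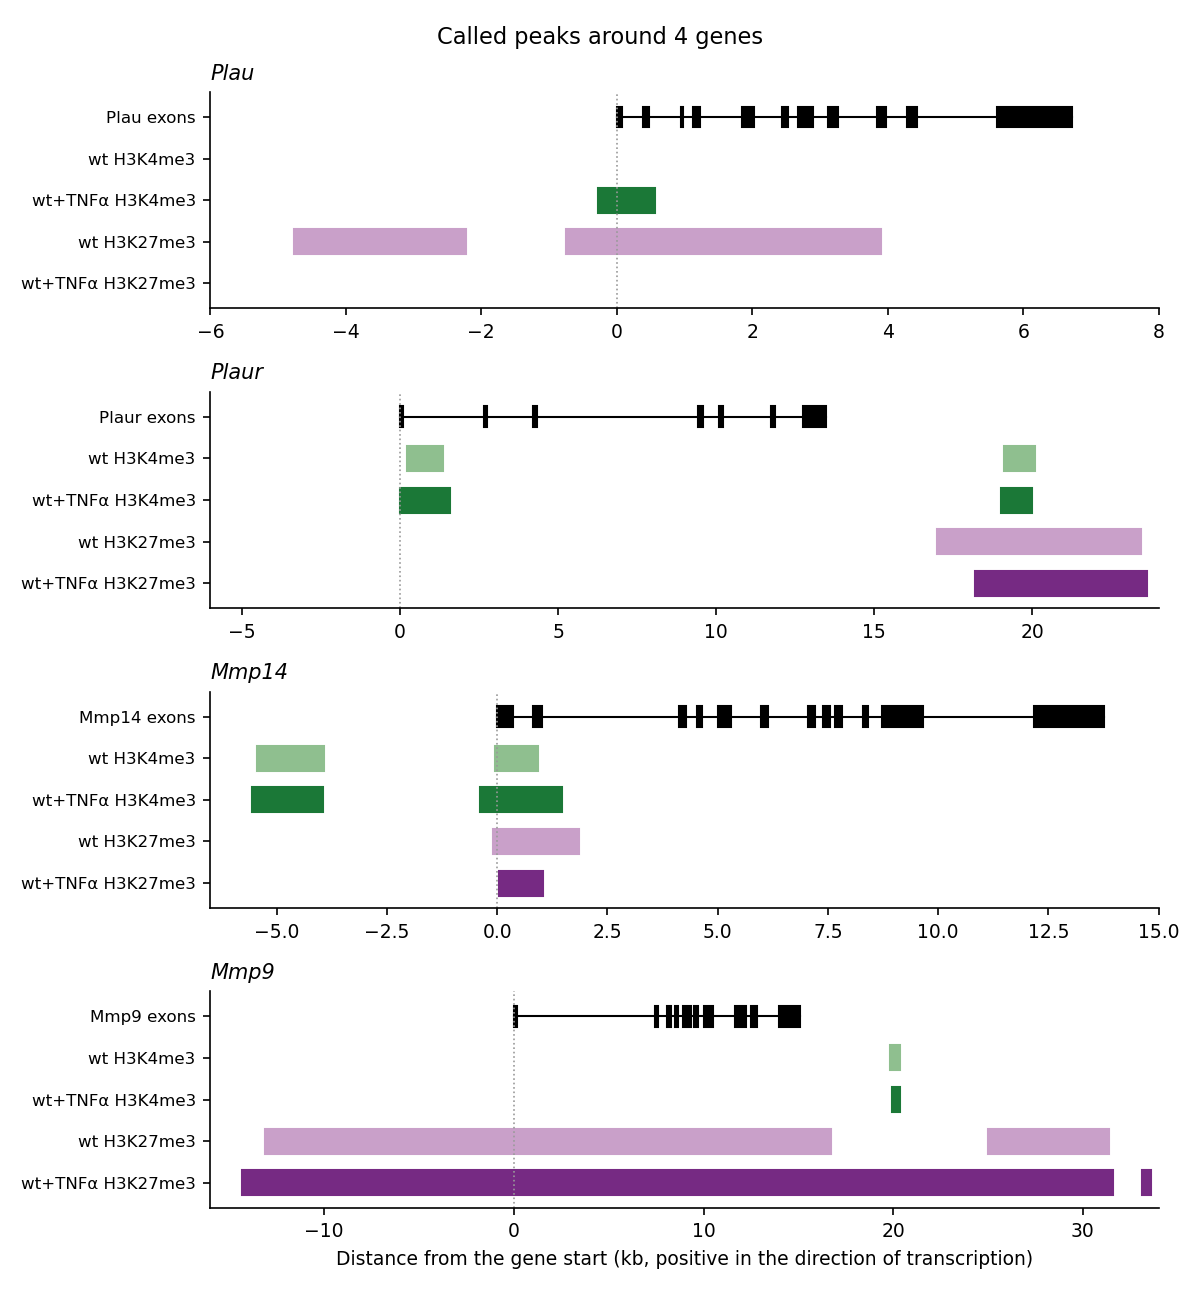
Called peaks around Plau, Plaur, Mmp14 and Mmp9, with the distance from the gene start in kb on the horizontal axis and 1 track for each of the 4 peak lists. Black boxes are exons of protein-coding transcripts, coloured bars are peaks and the dotted line is the gene start. The 854 bp H3K4me3 peak of Plau appears in wt+TNFα alone and the 4644 bp H3K27me3 peak in wt alone, and at Mmp9 a single H3K27me3 bar of 45899 bp in wt+TNFα spans the gap between 2 bars in wt.

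Of the 5 metalloproteinase genes among the 8, Mmp14 was the one with H3K4me3. It encodes a membrane-bound enzyme (MT1-MMP) that cuts collagen at the cell surface and activates the gelatinase Mmp2. The gene (ENSMUSG00000000957.11, chr14:54431612-54445364, plus strand) has 7 annotated transcript starts. Its H3K4me3 peak was 969 bp wide in wt (chr14:54431565-54432533) and 1856 bp in wt+TNFα (chr14:54431234-54433089), with 331 bp more upstream and 556 bp more downstream. The covered share of the promoter was 20.1% in wt and 38.5% in wt+TNFα.

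Within each list, Mmp14 ranked low for H3K4me3 in wt and higher in wt+TNFα. The fold enrichment was 6.05 in wt, at percentile 4.35, and 13.0 in wt+TNFα, at percentile 20.5. This difference in place of 16.2 points lay at percentile 82.8 of single-peak genes, which were not matched for their place in wt. At its low wt place Mmp14 had little room to rank lower. The width ratio of 1.92 lay at percentile 98.8. With Plau and Plaur, Mmp14 was 1 of 3 genes with a larger H3K4me3 share in wt+TNFα, among the 3 of the 8 with a peak in either condition. Over all protein-coding genes with a peak in either condition 70.3% had a larger share and 25.4% a smaller one, so the direction was the common one.

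**Figure D3:**
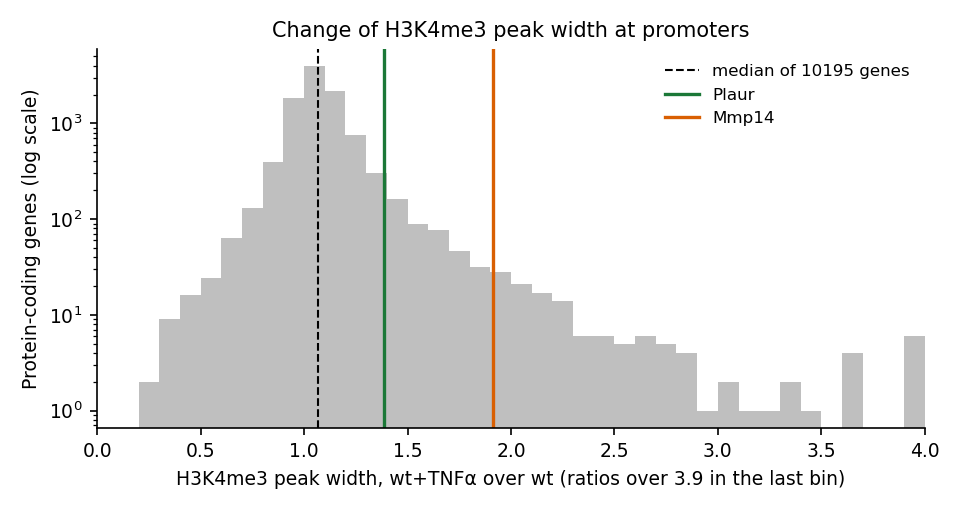
Ratio of the H3K4me3 peak width in wt+TNFα to that in wt for 10195 protein-coding genes with 1 promoter peak in each condition, with the number of genes on a log scale. Coloured lines mark Plaur at 1.38 and Mmp14 at 1.92, both to the right of the dashed median of 1.06.

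H3K27me3 at Mmp14 went the other way in width. The peak was 1963 bp in wt (chr14:54431516-54433478) and 985 bp in wt+TNFα (chr14:54431667-54432651), and the covered share was 39.8% in wt and 20.4% in wt+TNFα. This difference of −19.4 percentage points lay at percentile 3.61 of 4486 protein-coding genes with H3K27me3 in both conditions, whose median was 2.16 points. With other definitions of the promoter it ran from −33.1 to −5.34 points. Of the 3 genes with H3K27me3 in either condition, 2 (Plau and Mmp14) had a smaller share in wt+TNFα, and Mmp9 had 100% in both. Over all protein-coding genes with a peak in either condition 12.3% had a smaller share and 65.1% a larger one.

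The strength of the Mmp14 H3K27me3 peak is given for each list by itself, since the lists differ in length and in their lowest −log10 q. The narrower peak in wt+TNFα had a fold enrichment of 2.74, at percentile 95.9 of its list, and a −log10 q of 5.35. The wider peak in wt had a fold enrichment of 2.03, at percentile 29.8, and a −log10 q of 0.959. With only H3K27me3 peaks of −log10 q of at least 2, the wt peak was gone, and the difference turned to 20.4 percentage points more in wt+TNFα.

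The 2 marks at Mmp14 were nested in opposite ways. In wt all 969 bp of the H3K4me3 peak lay under the H3K27me3 peak and made up 49.4% of it. In wt+TNFα all 985 bp of the H3K27me3 peak lay under the H3K4me3 peak and made up 53.1% of it. Both marks in both conditions were called at 4.14% of protein-coding genes. Peaks from a mixed culture do not tell whether the same cells carried both marks. The next gene upstream, Mrpl52, which encodes a mitochondrial ribosomal protein, had an H3K4me3 peak of 1527 bp in wt and 1619 bp in wt+TNFα.

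Mmp9, the gene of gelatinase B (ENSMUSG00000017737.2, chr2:164940780-164955850, plus strand), lay wholly under H3K27me3. Peaks covered 100% of the promoter and of the gene body in both conditions, and no H3K4me3 peak was called. The domain was 29859 bp long in wt (chr2:164927668-164957526) and 45899 bp in wt+TNFα (chr2:164926446-164972344), a ratio of 1.54. It was wider than 99.4% of the peaks in the wt list and 99.2% of those in the wt+TNFα list. H3K27me3 peaks were wider in wt+TNFα in general, with a median of 1774 bp in wt and 2268 bp in wt+TNFα. H3K27me3 in both conditions with H3K4me3 in neither was called at 15.1% of protein-coding genes.

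The longer Mmp9 domain in wt+TNFα joined 2 peaks of wt. The wt peaks, separated by a gap of 8233 bp, covered 79% of it. The fold enrichment was 2.92 in wt, at percentile 93.2, and 3.05 in wt+TNFα, at percentile 97.2. The neighbour Slc12a5, a neuronal chloride transporter gene, had H3K27me3 at a promoter in both conditions, under the smaller wt peak of 6396 bp and under the joined domain of wt+TNFα. Another of its promoters had the H3K4me3 peak nearest to Mmp9, 546 bp wide and 5.23 kb from the Mmp9 promoter in wt, and 437 bp wide and 5.32 kb away in wt+TNFα.

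Mmp13, Mmp10 and Mmp7 share a cluster of metalloproteinase genes on chromosome 9. They encode a collagenase, a stromelysin and matrilysin, the small metalloproteinase known from glandular epithelium. Mmp13 (ENSMUSG00000050578.10) lies at chr9:7272514-7283331, Mmp10 (ENSMUSG00000047562.3) at chr9:7502352-7510240 and Mmp7 (ENSMUSG00000018623.9) at chr9:7692090-7699585, all on the plus strand. None of the 3 had a peak of either mark at the promoter or in the gene body in either condition. With Plat they made 4 of 8 genes with neither mark in either condition, where the background was 26.3%.

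The lack of peaks covered nearly the whole cluster. Its 427072 bp (chr9:7272514-7699585) hold 10 Mmp genes, which are Mmp13, Mmp12, Mmp1b, Mmp3, Mmp1a, Mmp10, Mmp8, Mmp27, Mmp20 and Mmp7. No H3K4me3 peak lay inside it in either condition, and no H3K27me3 peak in wt. In wt+TNFα there were 7 H3K27me3 peaks, which covered 12644 bp or 2.96% of the cluster and lay at no coding promoter. They were weak, with fold enrichments of 1.73 to 1.88 and −log10 q of 0.807 to 1.23.

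H3K4me3 was called on both sides of the cluster in both conditions. From the Mmp13 promoter the nearest peak was 85.8 kb away in wt and in wt+TNFα, at the start shared by Dcun1d5 and Dync2h1. From the Mmp7 promoter it was 70.7 kb away in wt and 70.5 kb in wt+TNFα, at Tmem123. The genes of the apoptosis inhibitors Birc2 and Birc3, which lie further along, had H3K4me3 in both conditions as well. The H3K27me3 peak nearest to the Mmp7 promoter was 441 kb from it in wt, at Cep126, and 8.53 kb from it in wt+TNFα. The wt+TNFα peak began at chr9:7701615, downstream of the gene end.

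**Figure D4:**
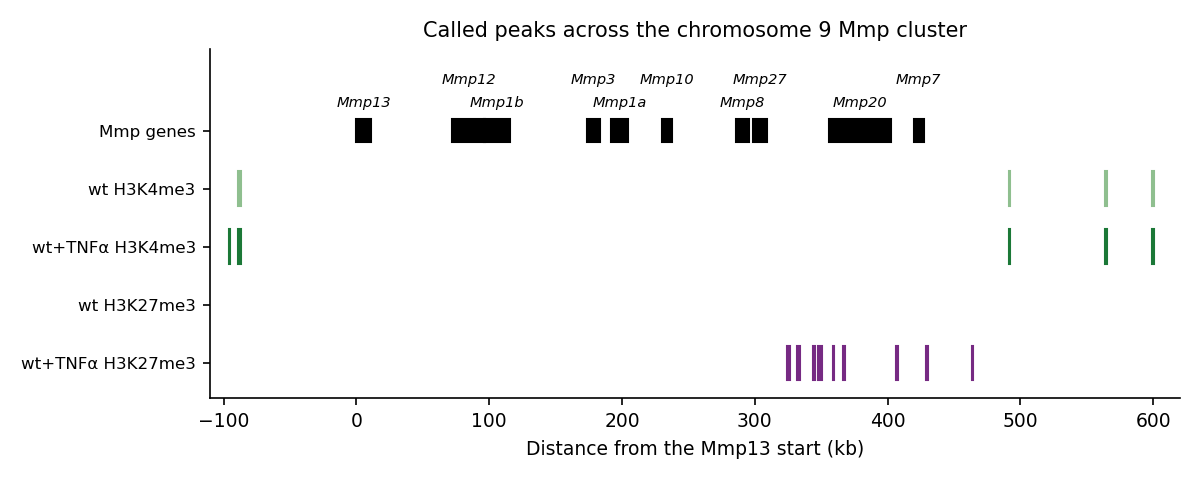
Peaks across the chromosome 9 cluster of 10 Mmp genes, by distance from the Mmp13 start in kb. Black boxes are genes and coloured bars, drawn with an outline so that narrow ones show, are peaks of the 4 lists. No H3K4me3 bar lies within the cluster, and bars at Dcun1d5, Tmem123, Birc2 and Birc3 flank it in both conditions, while H3K27me3 bars appear in wt+TNFα alone.

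The promoter sequences printed above were read for features that the choice of genes did not use. CpG content is given as the observed number of CpG over that predicted from the C and G content of the 300 bases. It was 0.0722 for Mmp13, 0.0878 for Mmp7, 0.188 for Mmp10, 0.265 for Plaur and 0.425 for Mmp14. The 3 genes without peaks were thus the lowest and Mmp14 the highest. Promoters of protein-coding genes with neither mark had a median of 0.167 (n = 4001), with the middle of the distribution from 0.0811 to 0.306. Promoters with H3K4me3 in both conditions had a median of 0.792 (n = 8638), those with H3K27me3 in both and no H3K4me3 0.471 (n = 2426), and those with both marks in both 0.75 (n = 701). Plaur and Mmp14 were thus lower in CpG than the lower quartile of the promoters with H3K4me3, which was 0.628, and Mmp14 was below the 0.583 of those with both marks.

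**Figure D5:**
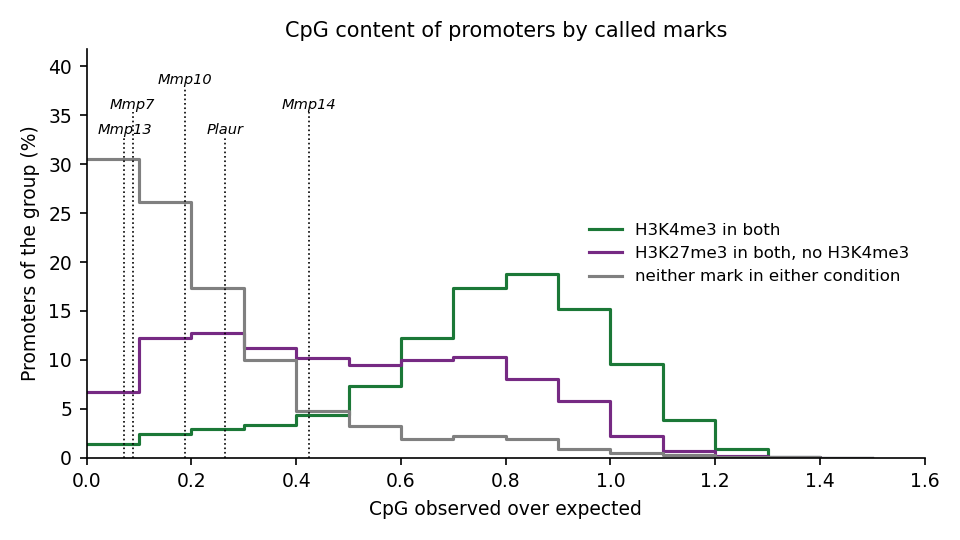
CpG observed over expected in 300-base promoters of protein-coding genes, as percent of the promoters in each of 3 groups by called marks. Dotted lines mark the 5 genes with a printed sequence, from Mmp13 at 0.0722 to Mmp14 at 0.425, all to the left of the bulk of the promoters with H3K4me3 in both conditions.

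AP-1, the Fos and Jun transcription factor, is a textbook regulator of metalloproteinase and urokinase system genes. A match to TGANTCA was present in 4 of the 5 promoters, at 69 bases before the RefSeq start in Plaur, 63 in Mmp7, 63 in Mmp10 and 35 in Mmp13, and absent from that of Mmp14. Over 16522 protein-coding promoters 7.03% had one. A TATA box was present 26 and 123 bases before the start in Mmp7, 29 in Mmp10 and 16 in Mmp13, and absent from Plaur and Mmp14, where 8.64% of all promoters had one. No match overlapped another. Among promoters with neither mark, 12.5% had the AP-1 motif and 18.7% the TATA box, and among those with H3K4me3 in both conditions 4.34% and 3.69%.

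The pair of motifs recurred in the cluster. Of 9 cluster genes with a RefSeq promoter, 6 held both motifs (Mmp13, Mmp1b, Mmp3, Mmp10, Mmp20 and Mmp7) and 3 held neither (Mmp12, Mmp8 and Mmp27). Over all promoters 1.1% held both. The CpG ratio of the 9 ranged from 0 to 0.27. These neighbouring genes arose by duplication, so their promoters are not independent of each other.

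The ETS core GGAAG, searched on both strands, was found in all 5 promoters, with 5 matches in Plaur, 3 in Mmp13, 3 in Mmp14, and 1 each in Mmp7 and Mmp10, and in 72% of all promoters. The NF-kB consensus was found in none of the 5 and in 4.87% of all promoters. A match only says that the letters are present, and a missing match that they are not in these 300 bases. Of the printed 300 bases, those of Mmp14 had 83 under H3K4me3 and 132 under H3K27me3 in wt, and 300 under H3K4me3 and 0 under H3K27me3 in wt+TNFα. Those of Plaur had 0 under H3K4me3 in wt and 38 in wt+TNFα.

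The other genes of the plasminogen system had the same H3K4me3 calls in both conditions. Of 13 such genes, 5 had H3K4me3 in both conditions, where 50.5% of protein-coding genes had it in wt and 51.2% in wt+TNFα, namely the plasminogen-binding surface proteins Plgrkt, S100a10, Anxa2 and Eno1 and the clearance receptor Lrp1. H3K27me3 was called at 3 in wt and at 6 in wt+TNFα, where 21.7% and 29.5% of protein-coding genes had it. Its share was larger in wt+TNFα at 4 of the 6 genes with a peak in either condition, close to the 65.1% over all protein-coding genes, and equal at Serpine2 and Vtn. The other 7 had none in either condition. The 3 with H3K27me3 in wt+TNFα alone, which 6.48% of autosomal protein-coding genes had, were Plg, which encodes plasminogen and is known mainly from liver, Lrp1 and Klkb1, the gene of plasma kallikrein. Their covered shares in wt+TNFα were 100% for Plg, 2.66% for Lrp1 and 29.1% for Klkb1. The peaks had a −log10 q of 1.81 for Plg, 28.3 for Lrp1 and 1.96 for Klkb1, so those of Plg and Klkb1 fell below 2. The Lrp1 H3K27me3 peak (chr10:127522851-127538925) lay at another transcript start than the H3K4me3 peak of wt+TNFα (chr10:127620132-127622178).

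Serpine2 and Serpinb2, which encode inhibitors of the plasminogen activators, had no H3K4me3 in either condition. Serpine2, the gene of protease nexin-1, had 57.4% of its promoter under H3K27me3 in both conditions. Serpinb2, which encodes PAI-2, had neither mark.

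Of the 18 other Mmp genes, 4 had H3K4me3 in both conditions (Mmp11, Mmp15, Mmp17 and Mmp28) and 10 had neither mark, where H3K4me3 was called at 50.5% (wt) and 51.2% (wt+TNFα) of protein-coding genes and 26.3% had neither mark. H3K27me3 was called at 6 in wt and 5 in wt+TNFα, against 21.7% and 29.5%. Mmp11, the gene of stromelysin-3, was the one that differed, with 9.60% of its promoter under an H3K27me3 peak of −log10 q 1.87 in wt and 0% in wt+TNFα. Its H3K4me3 share was 17.0% in wt and 16.2% in wt+TNFα. Mmp11 has 6 annotated starts, and the marks lay at different ones. The H3K27me3 peak was at chr10:75931350-75932407, and the H3K4me3 peak at chr10:75935686-75937334 in wt and chr10:75935649-75937220 in wt+TNFα. Mmp17, which like Mmp14 encodes a membrane-type enzyme, was the other Mmp gene with both marks in both conditions. Its H3K4me3 share was 30.2% in wt and 18.8% in wt+TNFα, the opposite order to Mmp14.

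Among 8 inhibitors and activators of metalloproteinases, H3K4me3 was called at 4 in wt and 5 in wt+TNFα, against 50.5% and 51.2% over all protein-coding genes, and H3K27me3 at 3 and 5, against 21.7% and 29.5%. The tissue inhibitors Timp1 to Timp4 showed 4 different arrangements. Timp2, whose product binds Mmp14 at the cell surface, had both marks in both conditions and, like Mmp14, a larger H3K4me3 and a smaller H3K27me3 share in wt+TNFα. Its H3K4me3 share was 17.4% in wt and 37.6% in wt+TNFα, over peaks of 390 and 841 bp. Its H3K27me3 share was 92.1% in wt and 12.04% in wt+TNFα, over peaks of 3827 and 983 bp with −log10 q of 6.44 and 2.37. Both H3K27me3 peaks of Timp2 thus had a −log10 q above 2, which was not so for the wt peaks of Plau and Mmp14.

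Timp3, an inhibitor bound to the matrix, had H3K4me3 in wt+TNFα alone, over 10.9% of its promoter, with H3K27me3 over 40.2% in wt and 52.2% in wt+TNFα. Timp1 lies on the X chromosome, whose H3K27me3 coverage of 0.597 Mb (wt) and 74.7 Mb (wt+TNFα) cannot be told apart from the values of this gene. Its promoter was at 0% in wt and 100% in wt+TNFα, under a peak of 30200 bp with a −log10 q of 1.85. Timp4 and the broad protease inhibitor gene A2m had neither mark. Reck, which encodes a membrane-anchored inhibitor, had both marks in both conditions, with H3K4me3 over 9.64% in wt and 13.9% in wt+TNFα and H3K27me3 over 50% and 66.0%. Furin, a protease that activates Mmp14, had H3K4me3 in both and H3K27me3 over 16.6% of its promoter in wt+TNFα alone. That H3K27me3 peak was weak, with a fold enrichment of 1.75 and a −log10 q of 0.863.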

How the data were processed

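Colonic organoids of wt mice, untreated or treated with TNFα, were profiled by ChIP-seq for H3K4me3 and H3K27me3 (1 library each), and samples were grouped by their labels. According to the methods, the authors used fastp for trimming and BWA (version 2.2) for alignment to GRCm38/mm10, removed duplicates with SAMtools (version 1.11) and called peaks against input with MACS2 (version 2.1.0 per the labels, a different version being named elsewhere in the study). In the 4 deposited lists, the authors give each peak a score, a fold enrichment (a ratio to local background) and p-values and q-values as −log10. The narrow lists also hold a summit position. These values were scaled per library, so strength was compared by percentile within a list. Inputs were not analysed here.

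Peaks were read as 1-based intervals and set against GENCODE mouse release M21 (GRCm38), with promoters that reached 1000 bp up- and downstream of all transcript starts and an overlap of at least 1 bp. Covered percent is the share of merged promoter bases under peaks. With 1 library per condition no test was run, and shares over all protein-coding genes serve as background. The 8 genes and all gene lists were chosen with earlier results of these data known. Named besides the 8 were the cluster genes, direct inhibitors, related genes with a peak in 1 condition alone or a covered percent differing by at least 25 points, and the 3 genes nearest to Plau over the 4 covered percents. Other related genes were named after their values were seen. One item of these lists is not reported here. Motifs and CpG were counted in RefSeq promoters (GRCm38.p6), of which 16522 matched protein-coding genes by symbol. The scripts (Python 3.11.15, numpy 2.4.6, matplotlib 3.10.9) were tested on simulated peak lists, and 11 alternative settings were tried.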

Additional observations from a re-analysis of the deposited data

How the results depend on the processing

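The 11 alternatives were applied to 11 counts of the 8 genes, and 108 of 121 values stayed within 1.5 times the value reported. Counts of 0 that stayed 0 and counts that fell from 3 to 2 are among the 108. Counting only 1000 bp upstream of a start left 1 gene with H3K4me3 in wt (Mmp14, against 2) and gave 2 with H3K4me3 in wt+TNFα alone (Plau and Plaur, against 1). Promoters of 5000 bp on each side gave 1 gene with more H3K27me3 in wt+TNFα (Mmp9, against 0). With H3K27me3 peaks of −log10 q of at least 2, 1 gene had H3K27me3 in wt (Mmp9, against 3), 0 had it in wt alone (against 1), 1 had it in wt+TNFα alone (Mmp14, against 0), 0 had less of it in wt+TNFα (against 2) and 1 had more (Mmp14, against 0). The Mmp14 difference in covered H3K27me3 then reversed, to 20.4 percentage points from −19.4. When each list was cut at its own median −log10 q, 0 genes had H3K4me3 in wt (against 2), 0 in wt+TNFα (against 3), 0 in wt+TNFα alone (against 1) and 0 had more of it in wt+TNFα (against 3). With equal covered autosomal length of both lists of a mark, 0 genes had H3K4me3 in wt+TNFα alone (against 1). Without Plau, 2 genes then had H3K4me3 in wt+TNFα (against 3) and 2 had more of it there (against 3). The covered-percent differences depended on the promoter bases counted. For H3K4me3, Plau ran from 41.4 points as reported to 79.7 (500 bp on each side), 21.01 (2000 bp) and 8.49 (5000 bp), Plaur from 10.1 to 19.96 (500 bp), 4.36 (5000 bp) and 0.59 (upstream alone), and Mmp14 from 18.4 to 31.4 (protein-coding starts alone), 10.05 (2000 bp), 11.7 (upstream alone) and 5.11 (5000 bp). For H3K27me3, Mmp14 ran from −19.4 to −33.1 (protein-coding starts), −11.1 (2000 bp), −7.55 (1 start per gene), −5.76 (5000 bp) and −5.34 (upstream alone). The Plau pattern, H3K27me3 in wt alone with H3K4me3 in wt+TNFα alone, was called in 8 of the 11 alternatives. These shifts follow from how each alternative is built, which takes peaks or promoter bases away or adds them.

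No paired analysis was possible because each condition had 1 library per mark and no test was run, and no library was left out in turn, since a condition would then have none. Depth bears on what was called: a promoter without a peak is one where no signal passed the calling threshold, the H3K4me3 library of wt+TNFα was stated to be the deeper one, and the reads at the 8 genes were not analysed here. Treatment, the sex of the mice, depth and differences in how the lists were made cannot be told apart. For H3K27me3, whose libraries had nearly equal read numbers, the depth meant is that of the inputs.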

Other observations

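The genes of AP-1 and ETS factors, whose motifs were read in the promoters, were also looked up. All 12 AP-1 and ETS factor genes listed (Fos, Fosb, Fosl1, Fosl2, Jun, Junb, Jund, Ets1, Ets2, Elf3, Etv4 and Etv5) had an H3K4me3 peak at the promoter in both conditions, where 50.5% of protein-coding genes had one in wt and 51.2% in wt+TNFα. The covered share was larger in wt+TNFα for 5 and smaller for 6, where 70.3% of protein-coding genes with a peak had a larger share and 25.4% a smaller one. Jund, an AP-1 subunit, had the largest difference of the list, with 82.9% in wt and 51.7% in wt+TNFα. H3K27me3 was called at Ets1 in both conditions and at Etv4 in wt+TNFα alone. The Etv4 peak covered 9.19% of the promoter and had a −log10 q of 1.71. None of the others had H3K27me3, so it was called at 1 of 12 in wt and 2 of 12 in wt+TNFα. Over all protein-coding genes 21.7% and 29.5% had it.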
